A study of Mus musculus with 29 samples.

Results

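Lymphoid priming was followed through 9 genes chosen by name from the deposited FPKM table, in which FPKM gives the fragments of a gene relative to its exon length and to the size of the library: Flt3, Dntt, Il7r, Rag1, Rag2, Ccr9, Satb1, Notch1 and Ikzf1. All 9 are among the 30025 genes of the table. The RNA came from 10 mice, 5 wild-type (WT) and 5 5A3+/del, on the C57BL/6J strain at 12.42 to 13.85 weeks of age. No group received a treatment. 5A3+/del mice carry 1 germ line copy of a deletion of mouse chromosome band 5A3, a segment syntenic to human 7q22, in all their cells, so the deletion is not limited to blood. The deletion was made with Cre recombinase and loxP sites in embryonic stem cells. From the marrow of each mouse, Lin-Sca1+c-kit+ cells that lacked CD41 and CD48 were sorted by CD150 into CD150hi hematopoietic stem cells (HSC), CD150lo HSC and CD150neg cells, which the sample labels also call HSC and which are called multipotent progenitors (MPP) here. This gave 29 libraries, 5 per genotype and fraction except 4 for 5A3+/del CD150neg MPP, for which mouse 5 has no library. A library is named by its mouse, so that WT mouse 1 is the same animal in all 3 fractions, whereas WT mouse 1 and 5A3+/del mouse 1 are different animals.

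Lymphoid priming is the low-level transcription of lymphoid genes in multipotent cells before they commit to the B, T or natural killer lineages. It accompanies the gain of the receptor FLT3 and the loss of self-renewal as stem cells become multipotent progenitors. The genes fall into regulators (Ikzf1, Satb1 and Notch1), receptors for cytokines and chemokines (Flt3, Il7r and Ccr9) and enzymes that rearrange antigen receptor genes (Dntt, Rag1 and Rag2).

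Between 21229490 and 38797569 fragments per library (median 26967107) underlie the FPKM, as read from the steps between the lowest values. Amplified fragments carry no molecular identifier, so a floor of 3 fragments covers counting error only. Median FPKM over all genes was lowest in 5A3+/del CD150hi mouse 1 (0.156) and WT CD150hi mouse 2 (0.177), against a median of 0.433 over the libraries. WT mouse 3 stood apart by Xist, a transcript of the inactive X chromosome, with 233.7 to 319.04 FPKM in its 3 libraries and at most 0.470 FPKM in the other 26. No 5A3+/del mouse had such a level, so the WT group alone is mixed in this respect. The sex of the mice was not assigned here. Several results that rest on 5A3+/del mouse 1 or WT mouse 3 are given with and without that mouse. In RNA from a sorted fraction, fewer cells that express a gene and less RNA per cell cannot be told apart. The 3 libraries of a mouse share its marrow, but the main limma fit left this pairing out. Its p-values rest on the spread between mice within the groups, and the mouse as a block was an alternative.

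RefSeq (GRCm38.p6) lists 14 promoters for the 9 genes, of 300 bases each, 250 before and 50 from the start site on, and each has 1 exact match in mm9. Satb1 has 5 of the 14, 2 of which overlap each other, and Ikzf1 has 2. The promoters of Flt3, Satb1 and Dntt are shown because these genes carry the main difference between the fractions, and for Satb1 the one farthest upstream, listed first, was taken. Each is written 5′ to 3′ on the strand of its gene, and the capitals mark matches on either strand to GGGAA (the Ikaros core) or GAGGAA (a PU.1 core), so that TTCCC and TTCCTC are matches read on the opposite strand. The Flt3 promoter lies at chr5:148212016-148212315 (minus strand), the Satb1 promoter shown at chr17:51972566-51972865 (minus strand) and that of Dntt at chr19:41103515-41103814 (plus strand), all in mm9.
Flt3: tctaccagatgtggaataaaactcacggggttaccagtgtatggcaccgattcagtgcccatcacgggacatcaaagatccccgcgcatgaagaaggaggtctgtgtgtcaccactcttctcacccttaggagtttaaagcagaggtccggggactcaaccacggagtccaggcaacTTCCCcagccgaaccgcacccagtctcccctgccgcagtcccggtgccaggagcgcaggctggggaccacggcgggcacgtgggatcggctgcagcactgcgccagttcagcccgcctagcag
Satb1: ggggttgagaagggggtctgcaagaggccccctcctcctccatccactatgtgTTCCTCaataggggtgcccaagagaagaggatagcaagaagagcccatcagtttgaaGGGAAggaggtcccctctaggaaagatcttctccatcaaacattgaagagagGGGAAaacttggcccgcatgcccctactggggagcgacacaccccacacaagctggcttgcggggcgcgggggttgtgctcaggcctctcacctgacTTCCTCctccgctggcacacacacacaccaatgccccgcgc
Dntt: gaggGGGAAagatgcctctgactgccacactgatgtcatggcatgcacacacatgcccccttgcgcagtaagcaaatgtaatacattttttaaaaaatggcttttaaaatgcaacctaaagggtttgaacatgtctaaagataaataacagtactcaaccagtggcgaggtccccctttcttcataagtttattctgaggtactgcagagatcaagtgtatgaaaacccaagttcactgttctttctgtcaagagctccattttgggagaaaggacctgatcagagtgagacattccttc
GGGAA was found once in the Flt3 and Dntt promoters and at 2 places in the Satb1 promoter shown. It occurred in 10 of the 14 promoters, among them 4 of the 5 of Satb1, and in 62.7% of all 32851 RefSeq promoters of this length. GAGGAA was found in 5 of the 14, which are those of Rag2 and Notch1 and 3 of Satb1, the overlapping pair included, and in 28.3% of all promoters. The E-box CANNTG was found in 10 of the 14 and in 72.3% of all, and TGTGGT, a RUNX core, in 2 of the 14 (Il7r and Rag1) and in 16.8% of all. GGGAA and GAGGAA cannot share bases, whereas CANNTG can share bases with each of the other three. These are matches of letters and not measured sites.

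The genes spanned a wide range of expression per length. In WT CD150neg MPP the mean FPKM was 92.97 ± 8.27 (SD, n = 5) for Ikzf1 and 51.4 ± 8.60 for Flt3. Dntt at 13.3 ± 4.35 and Satb1 at 12.4 ± 2.26 came next and did not differ beyond their spread. Notch1 had 7.83 ± 1.16 and Ccr9 had 2.95 ± 1.31. Il7r at 0.534 ± 0.413 and Rag2 at 0.423 ± 0.165 overlapped, and Rag1 was lowest at 0.0454 ± 0.0592. In WT CD150hi HSC the order was Ikzf1, Notch1, Flt3, Satb1 and Ccr9. Dntt, Il7r, Rag1 and Rag2 had means of at most 0.0222 there. Each had at most 1 library over 3 fragments, so their order was not read.

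**Figure D1:**
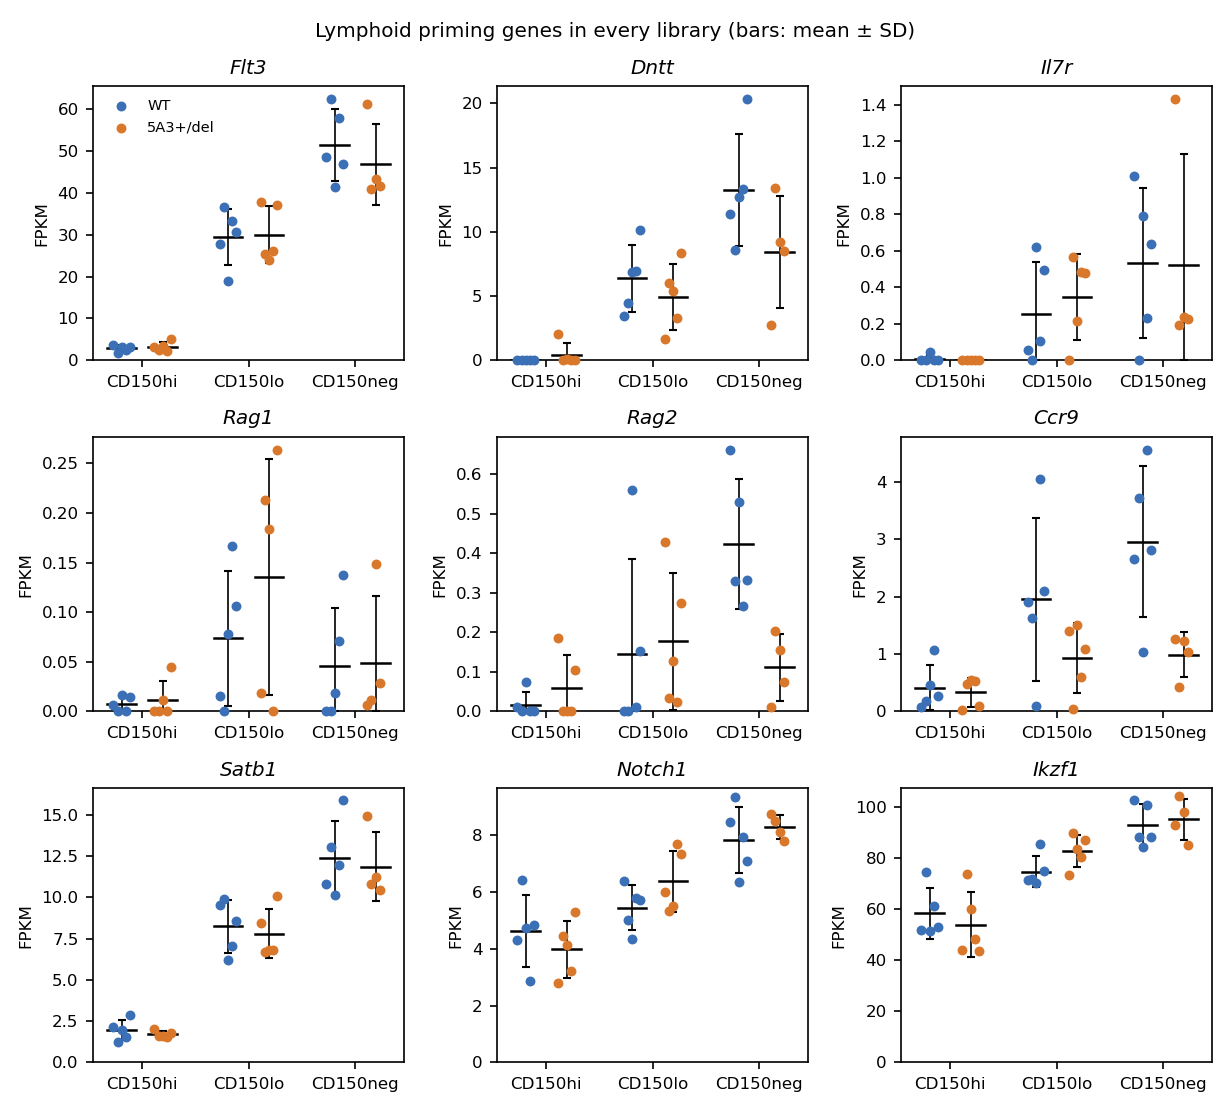
FPKM of each of the 9 genes (vertical axes from 0, a scale per gene) in CD150hi, CD150lo and CD150neg cells; each point is a library, blue for WT and orange for 5A3+/del, and bars give the mean ± SD with the lower end stopped at 0. Flt3 and Satb1 form 3 separate steps in either genotype, Dntt is near 0 in CD150hi HSC except in 5A3+/del mouse 1 at 2.03 FPKM, and Ccr9 in CD150neg MPP runs from 1.04 to 4.55 in WT mice, but from 0.433 to 1.26 in 5A3+/del mice.

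Differences between groups were tested with limma on quantile-normalized log2(FPKM + 1) of the 15409 genes that reached 1 FPKM in at least 4 libraries, with Benjamini-Hochberg adjustment over all of them and a threshold of 0.05. Of the 9 genes, 6 passed this filter. Flt3, Satb1, Notch1 and Ikzf1 passed it in all 29 libraries, whereas Dntt (20 libraries) and Ccr9 (16 libraries) passed it mainly through the fractions in which they are high. With the pseudocount of 1, log2 differences of weakly expressed genes come out smaller than their ratios of FPKM. Quantile normalization also raised low values in the 2 libraries of lowest median FPKM. In 5A3+/del CD150hi mouse 1, Ccr9 at 0.0234 FPKM became 0.516 on the log2 scale, against 0.513 in mouse 4 with 0.533 FPKM. In WT CD150hi mouse 2, Dntt at 0 became 0.169.

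Flt3, a receptor tyrosine kinase whose surface level separates long-term stem cells from progenitors with lymphoid potential, rose steeply between CD150hi and CD150lo HSC. The gene lies at positions 148142317 to 148212065 of chromosome 5, outside the deleted interval on the same chromosome. In WT CD150hi HSC its FPKM was 3.71, 1.66, 3.12, 2.59 and 3.23 in mice 1 to 5. In WT CD150lo HSC it was 27.8, 36.6, 18.9, 33.2 and 30.6, and in WT CD150neg MPP 48.5, 62.4, 41.3, 57.9 and 46.7. The 3 fractions did not overlap, and each mouse rose at each step. Of all tested genes, 1.77% were higher without overlap in CD150lo than in CD150hi HSC of WT mice, 1.34% in CD150neg MPP than in CD150lo HSC and 4.24% in CD150neg MPP than in CD150hi HSC. Mean FPKM was 10.3-fold higher in CD150lo than in CD150hi HSC and 1.75-fold higher in CD150neg MPP than in CD150lo HSC. On the log2 scale the first step was 2.98 (SE 0.18, adjusted p = 5.16e-11), whereas the second, 0.76 (SE 0.18, adjusted p = 0.0735), did not pass the threshold.

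The 5A3+/del mice followed the same steps of Flt3. It had 3.13, 2.47, 3.46, 2.30 and 5.11 FPKM in CD150hi HSC of mice 1 to 5 and 37.7, 25.4, 23.9, 26.1 and 37.0 in CD150lo HSC. The 4 CD150neg MPP libraries had 61.2, 41.0, 43.3 and 41.6. Again the fractions did not overlap, where the background was 2.00%, 1.21% and 4.02% of tested genes, and all mice with both libraries rose at both steps. The first step was 2.87 on the log2 scale (SE 0.18, adjusted p = 6.50e-11), and the second was 0.56 (SE 0.20, adjusted p = 0.827).

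Satb1, which encodes a nuclear protein that organizes chromatin and is needed for lymphoid development, moved much as Flt3 did. WT CD150hi HSC had 2.16, 1.25, 1.97, 1.53 and 2.88 FPKM. CD150lo HSC had 9.52, 9.93, 6.22, 7.04 and 8.55 FPKM, and CD150neg MPP had 10.8, 13.0, 10.2, 11.9 and 15.9. No 2 WT fractions overlapped, and the means were 4.21-fold and then 1.50-fold apart. The difference between CD150lo and CD150hi HSC was 1.68 on the log2 scale in WT (SE 0.15, adjusted p = 3.26e-08) and 1.70 in 5A3+/del mice (SE 0.15, adjusted p = 2.08e-08). From CD150lo HSC to CD150neg MPP it was 0.47 in WT (SE 0.15, adjusted p = 0.274) and 0.51 in 5A3+/del mice (SE 0.16, adjusted p = 0.654). Its means in 5A3+/del mice were 1.70 ± 0.197 (SD, n = 5), 7.79 ± 1.48 (n = 5) and 11.9 ± 2.07 FPKM (n = 4), and these fractions did not overlap either.

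Dntt encodes terminal deoxynucleotidyl transferase, which adds bases to the junctions of rearranging antigen receptor genes and is among the earliest lymphoid transcripts. It was listed at 0 in 3 of 5 WT CD150hi libraries, and the other two had 3 and 4 fragments. WT CD150lo HSC had 3.48, 4.46, 6.91, 6.98 and 10.2 FPKM in mice 1 to 5, from 270 to 584 fragments, and WT CD150neg MPP had 11.4, 8.59, 12.7, 13.4 and 20.3. CD150hi HSC did not overlap the other fractions, CD150lo HSC and CD150neg MPP overlapped, and all 5 mice rose at both steps. The difference between CD150lo and CD150hi HSC was 2.76 on the log2 scale (SE 0.37, adjusted p = 1.77e-05) and depends on the pseudocount, with 5.41 (adjusted p = 3.94e-06) for a pseudocount of 0.1. Over all alternatives its adjusted p ran from 4.16e-08 to 0.000635.

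In 5A3+/del mice, 4 of the 5 CD150hi libraries had 0 to 5 fragments of Dntt, but mouse 1 had 115 (2.03 FPKM). This was also the library of lowest median FPKM. In the other fractions the same mouse had the lowest Dntt of its group, with 1.65 FPKM in CD150lo HSC, where the others had 3.30 to 8.34, and 2.79 in CD150neg MPP, where the others had 8.49 to 13.4. The difference between CD150lo and CD150hi HSC was 2.04 (SE 0.37, adjusted p = 0.000857), and 2.62 (SE 0.26, adjusted p = 6.48e-07) without 5A3+/del mouse 1, with adjusted p-values from 6.48e-07 to 0.0308 over all alternatives. The difference between CD150neg MPP and CD150hi HSC was 3.66 in WT (adjusted p = 7.22e-08) and 2.67 in 5A3+/del mice (adjusted p = 3.13e-05), or 3.40 (adjusted p = 2.46e-08) without that mouse.

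**Figure D2:**
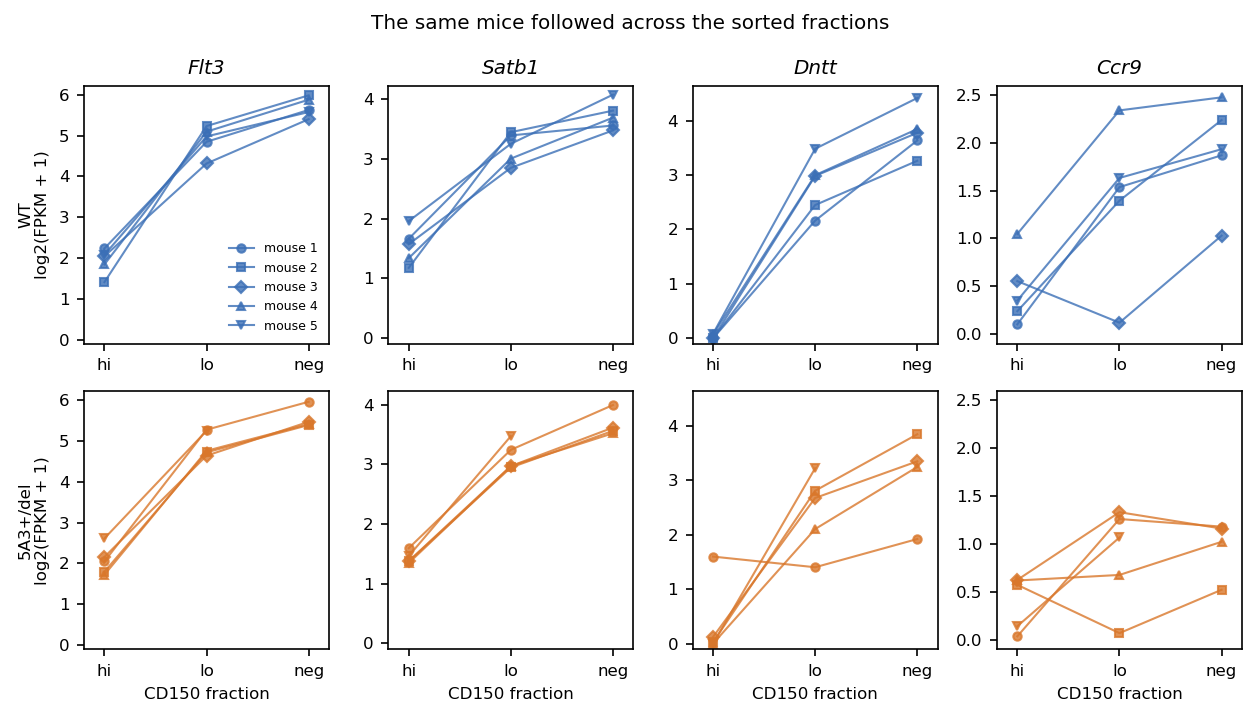
log2(FPKM + 1) of Flt3, Satb1, Dntt and Ccr9 (vertical axes) in the CD150hi, CD150lo and CD150neg libraries of each mouse, WT in the top row and 5A3+/del in the bottom row, with a line and a marker shape per mouse. Lines for Flt3 and Satb1 rise at both steps in every mouse, 5A3+/del mouse 1 starts at 2.03 FPKM of Dntt where the other mice are near 0, and WT mouse 3 falls to 0.0867 FPKM of Ccr9 in CD150lo HSC.

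Ikzf1 encodes Ikaros, a zinc finger factor required for lymphoid development, and it was the most abundant of the 9 genes in each fraction. WT CD150hi HSC had 51.8, 74.5, 51.3, 61.4 and 53.0 FPKM, and WT CD150neg MPP had 103, 88.4, 84.4, 101 and 88.4. These groups did not overlap, and the difference was 0.66 on the log2 scale (SE 0.12, adjusted p = 0.000622). The 5A3+/del CD150hi HSC had 44.2, 73.6, 60.1, 48.5 and 43.5 FPKM and CD150neg MPP had 93.2, 104, 98.3 and 85.1. They did not overlap, and the difference was 0.77 (SE 0.13, adjusted p = 0.000258). CD150lo HSC had intermediate means, of 74.8 ± 6.21 FPKM in WT mice and 82.9 ± 6.41 FPKM in 5A3+/del mice (SD, n = 5 each).

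Notch1, the receptor that directs progenitors to the T lineage, was expressed in all 29 libraries, with 2.81 to 9.33 FPKM. In WT it had 4.29, 6.42, 4.73, 2.88 and 4.82 FPKM in CD150hi HSC and 8.45, 9.33, 6.36, 7.94 and 7.08 in CD150neg MPP. The groups overlapped in WT mouse 2 and WT mouse 3, all 5 mice rose, and the difference was 0.65 on the log2 scale (SE 0.14, adjusted p = 0.00282). Among 5A3+/del mice the fractions did not overlap, with means of 3.98 ± 0.999 (SD, n = 5), 6.36 ± 1.07 (n = 5) and 8.28 ± 0.425 FPKM (n = 4). There the difference between CD150neg MPP and CD150hi HSC was 0.88 (SE 0.15, adjusted p = 0.000284). Of the exon bases of Notch1, 7.50% overlap 0610009E02Rik and 2.91% overlap Gm13568, both on the opposite strand, and the libraries carry no strand.

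Between CD150lo and CD150hi HSC, Ikzf1 and Notch1 passed the threshold in 5A3+/del mice, at 0.64 (adjusted p = 0.00234) and 0.57 (adjusted p = 0.0215), but not in WT, at 0.35 (adjusted p = 0.152) and 0.26 (adjusted p = 0.43). The difference between the genotypes in this step did not pass itself. It was 0.29 for Ikzf1 (95% CI -0.07 to 0.65, limma adjusted p = 0.999) and 0.31 for Notch1 (95% CI -0.11 to 0.72, adjusted p = 0.999). The call for Notch1 was lost without 5A3+/del mouse 1 (0.50, adjusted p = 0.13), mouse 3 (0.59, adjusted p = 0.0711) or mouse 4 (0.48, adjusted p = 0.158), and its adjusted p ran from 0.0110 to 0.158 over all alternatives.

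Ccr9, the receptor for the chemokine CCL25 that guides progenitors to the thymus, was expressed at a low level and differed widely between mice. WT CD150hi HSC had 0.0739, 0.181, 0.468, 1.07 and 0.276 FPKM, and WT CD150lo HSC had 1.90, 1.63, 0.0867, 4.05 and 2.10. WT CD150neg MPP had 2.65, 3.71, 1.04, 4.55 and 2.81. CD150neg MPP exceeded CD150hi HSC in every WT mouse, although the highest CD150hi library, of mouse 4, lay just above the lowest CD150neg library, of mouse 3. That difference was 1.35 on the log2 scale (SE 0.28, adjusted p = 0.00149). WT mouse 3 was the only WT mouse in which CD150lo HSC had less Ccr9 than CD150hi HSC, from 7 and 41 fragments. The difference between these fractions was 0.87 (SE 0.28, adjusted p = 0.0854) with all mice and 1.12 (SE 0.23, adjusted p = 0.00657) without WT mouse 3. It also passed when mouse was taken as a replicate block (0.87, adjusted p = 0.0150), and over all alternatives the adjusted p ran from 0.00657 to 0.301.

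In 5A3+/del mice Ccr9 stayed under 1.52 FPKM in all fractions. CD150hi HSC had 0.0234, 0.485, 0.540, 0.533 and 0.101 FPKM. CD150lo HSC had 1.39, 0.0472, 1.51, 0.596 and 1.09, and the 4 CD150neg MPP libraries had 1.26, 0.433, 1.23 and 1.03. All 3 fractions overlapped, and the difference between CD150neg MPP and CD150hi HSC was 0.52 (95% CI -0.08 to 1.12, adjusted p = 0.392). Ccr9 shares 8.36% of its exon bases with Gm17200 on its own strand and less with Gm17021 and Slc6a20a. Gm17200 had at most 0.299 FPKM in the CD150neg libraries.

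Counted together, 3 of the 6 tested genes were higher in CD150lo than in CD150hi HSC of WT mice (Flt3, Satb1 and Dntt) and 0 were lower, where 3.53% of all 15409 genes were called in either direction and 1.46% were higher. In 5A3+/del mice it was 5 of 6, all but Ccr9, against 3.18% and 1.37%. Between CD150neg MPP and CD150hi HSC all 6 were higher in WT (10.0% of all genes called, 4.58% higher) and 5 of 6, all but Ccr9, in 5A3+/del mice (6.16% called, 2.93% higher). Between CD150neg MPP and CD150lo HSC limma called 0 of the 6 in WT (0.188% of all genes) and 0 in 5A3+/del mice (0.0389%). At an unadjusted p under 0.05, 1349 genes (8.75%) differed in that comparison in WT and 763 (4.95%) in 5A3+/del mice. Among the 6, all but Ccr9 were under it in WT, with limma unadjusted p from 0.000305 (Flt3) to 0.0205 (Dntt). Only Flt3 (limma unadjusted p = 0.00777) and Satb1 (0.0038) were under it in 5A3+/del mice. As Dntt and Ccr9 passed the filter mainly through their high fractions, these counts only describe the genes and were not tested as a list.

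**Figure D3:**
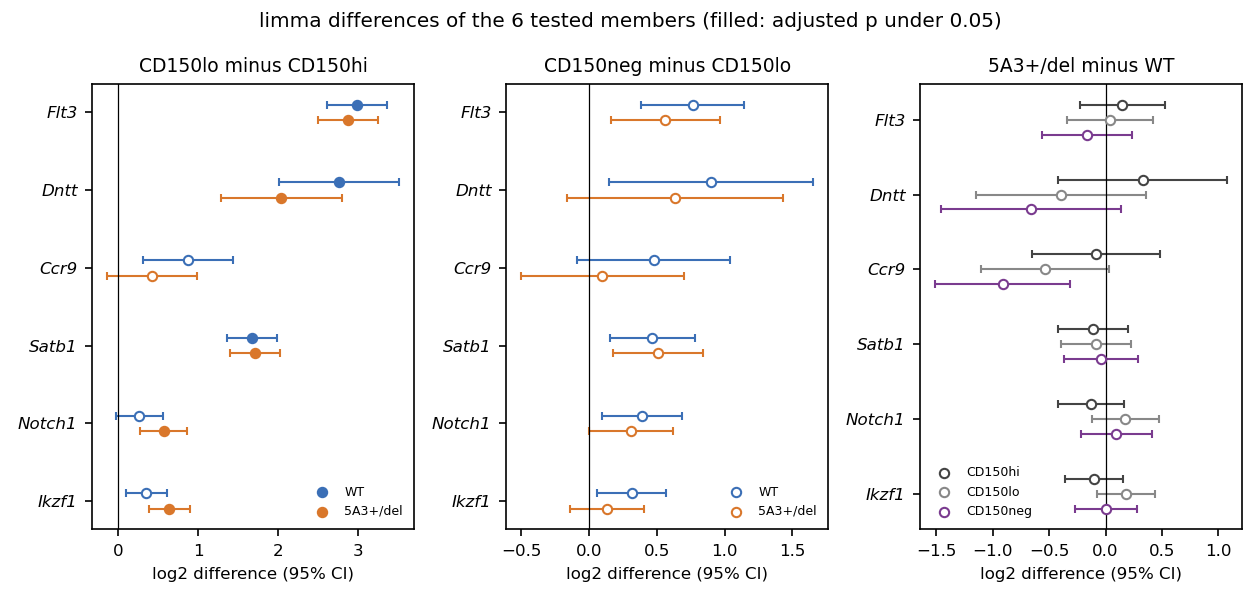
limma differences on the log2(FPKM + 1) scale (horizontal axes, with 95% confidence intervals) of the 6 tested genes for CD150lo minus CD150hi and CD150neg minus CD150lo in each genotype, and for 5A3+/del minus WT in each fraction; filled points have an adjusted p under 0.05. Flt3, Dntt and Satb1 are filled in both genotypes at the first step, no point is filled at the second step or between genotypes, and the interval of Ccr9 in CD150neg MPP, -1.51 to -0.31, leaves out 0.

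Between genotypes, limma called 0 of the 6 genes in any fraction, where it called 24 of all genes (0.156%) for CD150hi HSC, 5 (0.0324%) for CD150lo HSC and 7 (0.0454%) for CD150neg MPP. At an unadjusted p under 0.05 there were 2018 (13.1%), 1059 (6.87%) and 658 (4.27%) of all genes, and among the 6 only Ccr9 in CD150neg MPP. For Flt3 the differences of 5A3+/del from WT were 0.15 (95% CI -0.23 to 0.53) in CD150hi HSC, 0.04 (-0.34 to 0.42) among CD150lo HSC and -0.16 (-0.56 to 0.24) among CD150neg MPP. For Satb1 they were -0.11 (-0.42 to 0.20), -0.08 (-0.40 to 0.23) and -0.04 (-0.37 to 0.29). For Ikzf1 the interval was -0.36 to 0.15, -0.07 to 0.44 and -0.27 to 0.28 in the same order. For Notch1 it was -0.42 to 0.16, -0.12 to 0.47 and -0.22 to 0.41. Intervals for these genes thus reach at most 0.56 in size.

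Ccr9 had the largest genotype difference of the 6 in CD150neg MPP, where 5A3+/del mice had 33.5% of the WT mean FPKM. WT mouse 3, at 1.04 FPKM, was the only WT mouse within the range of the 5A3+/del mice. The difference was -0.91 on the log2 scale (SE 0.29, 95% CI -1.51 to -0.31), with an unadjusted limma p of 0.0043 and an adjusted p of 0.98. Without WT mouse 3 it was -1.11 (SE 0.23, adjusted p = 0.162), and over all alternatives it ran from -1.42 to -0.78, with adjusted p-values from 0.162 to 1. In CD150lo HSC the difference was -0.54 (95% CI -1.10 to 0.03, adjusted p = 0.779) and in CD150hi HSC -0.09 (-0.65 to 0.48, adjusted p = 0.927). The rise of Ccr9 from CD150hi HSC to CD150neg MPP was smaller in 5A3+/del than in WT mice by 0.83 (95% CI of the difference -1.65 to -0.00134, unadjusted p = 0.0497), and the adjusted p was 0.626.

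Dntt in CD150neg MPP had a mean of 13.3 ± 4.35 FPKM (SD, n = 5) in WT mice, while 5A3+/del mice had 8.46 ± 4.36 (n = 4), and the groups overlapped. The difference was -0.66 on the log2 scale (95% CI -1.46 to 0.13, adjusted p = 1.00). Without 5A3+/del mouse 1 it was -0.26 (adjusted p = 0.999). In CD150hi HSC the difference of 0.33 (adjusted p = 0.757) became -0.02 (adjusted p = 0.989) without that mouse. The rise of Dntt from CD150hi HSC to CD150neg MPP was smaller by 0.99 in 5A3+/del mice (95% CI of the difference -2.09 to 0.10, adjusted p = 0.656), and by 0.24 (adjusted p = 0.937) without that mouse. None of the 3 differences between genotypes in a step was called for any of the 15409 genes with limma (0%), whereas 614 (3.98%), 771 (5.00%) and 1227 (7.96%) genes had an unadjusted p under 0.05 for the steps from CD150hi to CD150lo, from CD150lo to CD150neg and from CD150hi to CD150neg.

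Il7r, Rag1 and Rag2 were under the filter, and most of their libraries held few fragments. Il7r, the alpha chain of the receptor for interleukin 7, which B and T progenitors need for survival, was listed at 0 in all 5 5A3+/del CD150hi libraries and in 4 of 5 in WT, where mouse 3 had 4 fragments. In CD150lo HSC it had 0 to 50 fragments in WT mice, against 0 to 48 in 5A3+/del mice. In CD150neg MPP of WT mice it had 1.01, 0, 0.790, 0.231 and 0.637 FPKM, from 0 to 84 fragments. Those of 5A3+/del mice had 1.43, 0.193, 0.235 and 0.228 FPKM, from 16 to 113. In CD150neg MPP of WT mouse 2 Il7r was listed at 0, while its Flt3, at 62.4 FPKM, was the highest of all libraries. The genotypes overlapped in CD150lo HSC (exact two-sided permutation test of mean FPKM, p = 0.587) and in CD150neg MPP (exact permutation test, p = 0.96). Without 5A3+/del mouse 1, mean Il7r in CD150neg MPP was 0.534 FPKM in WT and 0.219 in 5A3+/del mice (exact permutation test, p = 0.304).

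Rag1 and Rag2 encode the recombinase that cuts antigen receptor genes, and they are neighbours on chromosome 2, at 101478439 to 101489658 and 101464875 to 101472685. Rag1 had at most 0.263 FPKM in any library, and its highest fragment numbers, 29 in WT and 50 in 5A3+/del mice, were both in CD150lo HSC. Its exact permutation p-values between genotypes were 0.881, 0.317 and 0.929 in CD150hi, CD150lo and CD150neg cells. Rag2 in CD150neg MPP had 0.660, 0.331, 0.528, 0.265 and 0.332 FPKM in the 5 WT mice, from 27 to 60 fragments. The 4 5A3+/del mice had 0.0119, 0.203, 0.154 and 0.0743 FPKM, from 1 to 18 fragments. Every WT library was above every 5A3+/del library (exact two-sided permutation test, p = 0.0159, where the smallest possible is 0.00794). This is 1 of 9 such tests of these 3 genes, and of the 14616 genes under the filter with a value above 0 in any library, 0.267% were lower in 5A3+/del CD150neg MPP without overlap. The test did not pass without 5A3+/del mouse 1, 3 or 4 (exact permutation test, p = 0.0536 each), where the smallest possible p is 0.0179. It passed at the smallest possible p without 5A3+/del mouse 2 (exact permutation test, p = 0.0179) and without each WT mouse (p = 0.0286 each).

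The other fractions did not share this pattern of Rag2. In CD150lo HSC it had 0 to 48 fragments in WT mice, against 2 to 36 in 5A3+/del mice (exact permutation test, p = 0.762), and in CD150hi HSC 0 to 7 and 0 to 17 (p = 0.444, exact permutation test). Without WT mouse 3, mean Rag2 in CD150lo HSC was 0.0407 FPKM in WT and 0.177 in 5A3+/del mice (exact permutation test, p = 0.175). Among 5A3+/del mice, mouse 1 had the highest Rag2 in CD150hi and CD150lo HSC and the lowest in CD150neg MPP. Exons of B230118H07Rik overlap 6.08% of the exon bases of Rag2, on the opposite strand, and 1.21% of those of Rag1, on the same strand. B230118H07Rik had 3.16 to 7.21 FPKM in WT and 4.90 to 7.59 FPKM in 5A3+/del CD150neg MPP. Whether reads in the shared bases enter the Rag2 values was not tested.

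Other genes were taken from lists by their role in early lymphoid cells, and not all of them are limited to the lymphoid lineages. Of 20 tested transcription factors, limma called 5 higher and 1 lower in WT CD150neg MPP than in CD150hi HSC, and 5 higher and 1 lower in 5A3+/del mice, where 10.0% and 6.16% of all genes were called. The median difference of the list was 0.20 in WT and 0.13 in 5A3+/del mice, against 0.01 and 0.00389 over all genes. Runx3, a RUNX factor of T cells, rose by 1.35 in WT (adjusted p = 1.13e-05) and 1.22 in 5A3+/del mice (adjusted p = 0.000131). Sox4, a factor of B and T progenitors, rose by 0.89 (adjusted p = 0.000716) and 1.03 (adjusted p = 0.000334). Sfpi1, which encodes PU.1, rose by 0.76 (adjusted p = 0.000938) and 0.52 (adjusted p = 0.0447), and Ikzf2, the Ikaros relative Helios, by 0.79 (adjusted p = 0.00118) and 0.61 (adjusted p = 0.0244). Gata3, a factor of the T lineage, had a difference of -0.92 in WT (adjusted p = 0.00213) and of -0.66 in 5A3+/del mice (adjusted p = 0.0555). Foxo1, which in B cell precursors acts upstream of Il7r and the Rag genes, had -0.41 in WT (adjusted p = 0.183) and -0.74 in 5A3+/del mice (adjusted p = 0.0177). The genotypes did not differ past the threshold in this step for Gata3 (0.26, 95% CI -0.33 to 0.84, adjusted p = 0.873) or Foxo1 (-0.33, 95% CI -0.88 to 0.22, adjusted p = 0.803). Pax5, Bcl11b, Lef1, Ikzf3 and Spib, factors of committed lymphoid cells, were under 1 FPKM in all 29 libraries.

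Of 18 tested surface and signalling genes, 8 were higher and 1 lower in WT CD150neg MPP than in CD150hi HSC, and 5 and 1 in 5A3+/del mice, against 10.0% and 6.16% of all genes. The median difference was 0.47 in WT and 0.30 in 5A3+/del mice. Cd52, a small surface glycoprotein of lymphocytes, had 0.926 ± 0.792 FPKM (SD, n = 5) in CD150hi HSC of WT mice, 13.4 ± 2.14 among CD150lo HSC and 22.5 ± 5.84 among CD150neg MPP. Cd34, whose product the authors also used to gate myeloid progenitors, had 33.8 ± 11.9, 118 ± 16.1 and 162 ± 17.4 FPKM in the same fractions. Socs2, an inhibitor of cytokine signalling, fell by 1.35 in WT and by 1.24 in 5A3+/del mice on the log2 scale (adjusted p = 1.01e-05 and 9.85e-05). Cd48, whose product was used to exclude cells in the sort, rose by 2.37 in WT (adjusted p = 2.49e-05), to 6.37 ± 2.83 FPKM in CD150neg MPP.

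Of 19 tested Notch pathway genes, 2 were higher and 1 lower in WT CD150neg MPP than in CD150hi HSC, with a median difference of 0.10, and 2 were higher and 0 lower in 5A3+/del mice, with a median of 0.02. These counts stand against 10.0% of all genes called in WT and 6.16% in 5A3+/del mice. Maml3, a coactivator of Notch, rose by 1.16 in WT (adjusted p = 0.000248) and by 0.97 in 5A3+/del mice (adjusted p = 0.00389). Psen2, a presenilin of the protease that cuts the receptor, fell by 0.60 in WT (adjusted p = 0.00565) and had -0.35 in 5A3+/del mice (adjusted p = 0.215). The Notch targets Dtx1 and Ptcra were under 1 FPKM in all libraries, as was the ligand gene Dll1. The other listed genes, among them the targets Hes1, Hey1 and Nrarp, reached 1 FPKM in at least 1 library. Of 11 end-joining genes, which close the breaks of V(D)J recombination, 2 were higher and 1 lower in either genotype, against the same shares of all genes. Prkdc rose by 0.43 in WT (adjusted p = 0.0457) and 0.48 in 5A3+/del mice (adjusted p = 0.0459), and Polm, a polymerase related to Dntt, fell by 0.92 (adjusted p = 0.0191) and 0.91 (adjusted p = 0.0420). Xrcc6 had 0.67 in WT (adjusted p = 0.00379) and 0.22 in 5A3+/del mice (adjusted p = 0.562), a difference between genotypes of -0.45 (95% CI -0.91 to -0.000847, adjusted p = 0.626). Poll, another polymerase, had 0.18 in WT (adjusted p = 0.692) and 1.09 in 5A3+/del mice (adjusted p = 0.00273), a difference of 0.91 (95% CI 0.26 to 1.56, adjusted p = 0.435). Between genotypes limma called 0 genes of these 4 lists in any fraction.

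HSC markers ran the other way. Of 12, 8 were lower and 0 higher in CD150neg MPP than in CD150hi HSC in either genotype (10.0% of all genes called in WT and 6.16% in 5A3+/del mice), with a median difference of -0.79 in WT and -0.83 in 5A3+/del mice. Vwf fell from 5.64 ± 1.07 to 0.511 ± 0.114 FPKM (SD, n = 5 each) in WT (-2.16, adjusted p = 5.52e-11). Slamf1, which encodes the CD150 used in the sort, fell by 3.75 in WT and by 3.90 in 5A3+/del mice, which the gate itself selects.

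**Figure D4:**
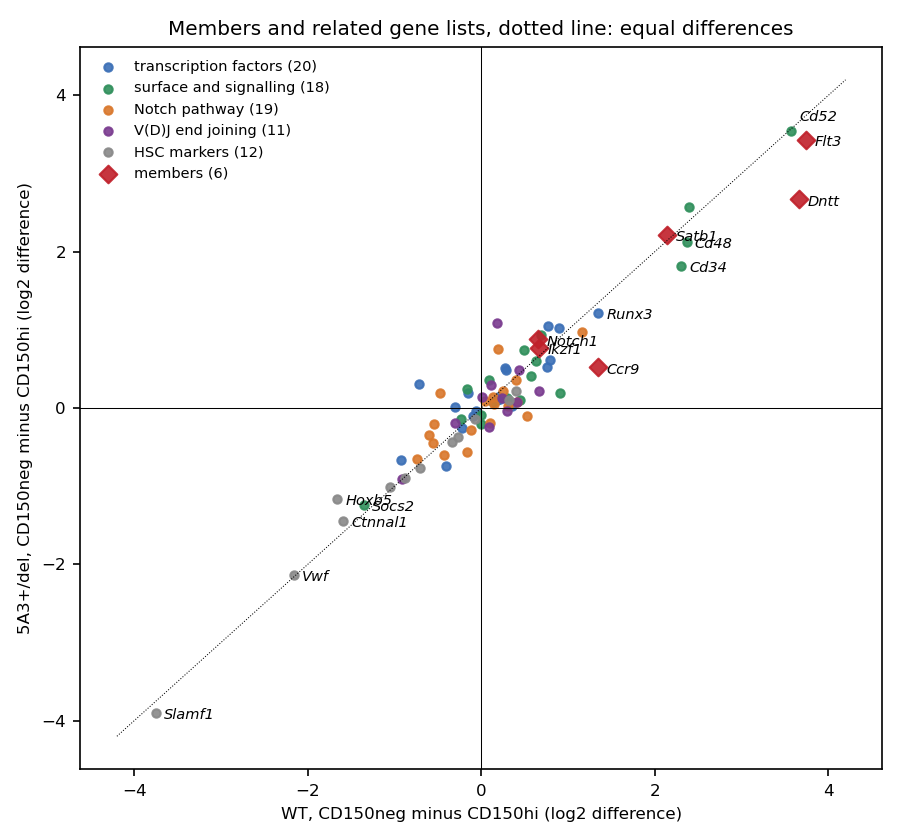
limma log2 difference between CD150neg MPP and CD150hi HSC in WT (horizontal axis) and 5A3+/del mice (vertical axis), a point per gene, red diamonds for the 6 tested members and circles for the tested genes of 5 related lists; the dotted line marks equal differences. Flt3 (3.74 in WT and 3.43 in 5A3+/del mice) and Satb1 (2.14 and 2.22) lie next to the dotted line, while Dntt (3.66 and 2.67) and Ccr9 (1.35 and 0.52) lie below it. Neither of these genotype differences passed the threshold (limma adjusted p = 0.656 for Dntt and 0.626 for Ccr9). That of Dntt went from -0.99 to -0.24 without 5A3+/del mouse 1.

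Over the 29 libraries, which share mice and fall into 3 fractions, Pearson's r of the normalized log2 values described which genes were most alike. Flt3 and Satb1 were each other's closest among the 15409 genes (r = 0.979). Next to Flt3 came Cd52 (r = 0.969) and Tespa1 (r = 0.968), and next to Satb1 came BC035044 (r = 0.962) and Cd52 (r = 0.961). The closest to Dntt were BC035044 (r = 0.937), Camsap2 (r = 0.931) and Ighm (r = 0.920), and Dntt itself had r = 0.890 with Flt3. For Notch1 they were B4galnt1 (r = 0.850), Cd27 (r = 0.848) and Scube3 (r = 0.841), and for Ikzf1 Emb (r = 0.906), Slc43a2 (r = 0.905) and P2ry14 (r = 0.886). The lowest of these values were for Ccr9, with 1110028C15Rik (r = 0.790), Anxa4 (r = 0.748) and Plek (r = 0.717), and it had r = 0.660 with Flt3.

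Markers of the B and T cell lineages, which include genes of B cell precursors, were mixed. Of 9 B cell markers, Ms4a1, Igll1, Blk and Cd22 were under 1 FPKM in all libraries, whereas Vpreb1, Cd79a and Vpreb3 reached 1.43, 2.85 and 3.88 FPKM. Cd79b (5.43 to 31.7 FPKM) made up most of the summed level, whose median was 12.8 FPKM in WT CD150hi HSC and 12.6 in WT CD150neg MPP. Of 9 T cell markers in the table, Cd3g, Cd8a, Cd8b1 and Zap70 were under 1 FPKM in all libraries, and Cd3d, Cd3e and Cd5 reached 1.01, 1.06 and 2.04 FPKM. Lat (16.6 to 38.3 FPKM) made up most of the sum, with medians of 24.0 and 32.3 FPKM in the same groups. Cd4, at 0.285 to 4.89 FPKM, was higher in CD150neg MPP than in CD150hi HSC of 5A3+/del mice (1.11, adjusted p = 0.0330), with 0.52 in WT (adjusted p = 0.327) and a genotype difference in this step of 0.59 (95% CI -0.31 to 1.49, adjusted p = 0.778). The 4 plasmacytoid dendritic cell markers summed to at most 1.93 FPKM. The 10 granulocyte and monocyte markers summed to 287.1 to 1067 FPKM in WT and 228 to 338 in 5A3+/del CD150hi HSC, to 212 to 1617 and 238 to 608 in CD150lo HSC, and to 247 to 294 and 213 to 524 in CD150neg MPP. Limma called 0 of the 9 tested in any comparison. In CD150hi HSC the differences of 5A3+/del from WT were -3.19 for Ngp, -3.35 for S100a8 and -3.14 for S100a9. Their limma unadjusted p was 0.00179, 0.00601 and 0.00591 (adjusted p = 0.12, 0.189 and 0.187), where 13.1% of all genes had an unadjusted p under 0.05. No other tested gene of this list was under 0.05 there. The 9 erythroid and megakaryocyte markers summed to 28.0 to 59.2 FPKM over the WT libraries and 28.1 to 74.4 over the 5A3+/del libraries. Of the 7 tested, only Itga2b, which encodes the CD41 used to exclude cells in the sort, was called, with -0.78 between CD150neg MPP and CD150hi HSC of 5A3+/del mice (adjusted p = 0.0485) and -0.38 in WT (adjusted p = 0.337). The part of these marker lists in the results above was not tested.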

How the data were processed

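The authors sorted the cells, amplified 10 ng of RNA per sample, sequenced paired ends and mapped them to mm9; the submitters' processing notes name Bowtie 0.12.2 and HTSeq. They deposited FPKM for 30025 genes in 29 libraries. How reads in overlapping genes were counted is not given in the sources used here. The 9 genes were matched by symbol and identifier to GENCODE for mm9.

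Genes with at least 1 FPKM in at least 4 libraries (15409) were transformed as log2(FPKM + 1) and quantile normalized over all libraries. limma 3.58.1 (R 4.3.3) was fitted with 6 group means and no term for the mouse to all 29 libraries. It gave 12 contrasts, two-sided, with Benjamini-Hochberg adjustment over all genes and a threshold of 0.05. Il7r, Rag1 and Rag2, which are under the filter, were compared by exact two-sided permutation of FPKM. Fragments were recovered from the steps of FPKM times exon length, and 98.1% to 98.6% of low values were whole within 0.02. Python 3.11.15 with pandas 2.3.3 read the table.

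The genes and lists were chosen with earlier results of these data known. The text names all 9 members and up to 4 called genes per list and contrast with the smallest adjusted p. It also names the 3 genes most like each tested member. Further genes were chosen after their values were seen. They are genes that overlap a member, Notch targets, genes of the lists under 1 FPKM and genes of the cell type marker lists. A few genes of the lists are counted but not reported here by name. Libraries of the 3 fractions are paired by mouse, from a code in the labels. The residuals of libraries of the same mouse had a median correlation of 0.079 (28 pairs), against -0.025 for different mice (112 pairs). Steps were tested on simulated data. Alternatives covered the pseudocount, filter, normalization, design, mouse block, age and leaving out each mouse.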

Additional observations from a re-analysis of the deposited data

Results flagged for a closer look

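In 8 of 52 groups of 4 or 5 libraries, the most extreme library lay farther from the others than Dixon's 95% criterion allows, where chance flags about 1 in 20 groups, or 2.6. Dntt in 5A3+/del CD150hi HSC of mouse 1 was 2.03 FPKM, from 115 fragments, and the others had 0 to 0.0887. In 5A3+/del CD150neg MPP, the same mouse was highest for Flt3 at 61.2 FPKM (others 41.0 to 43.3) and for Il7r at 1.43 FPKM (others 0.193 to 0.235). WT mouse 3 was highest for Il7r in CD150hi HSC at 0.0458 FPKM, from 4 fragments, for Rag2 in CD150hi HSC at 0.0751 FPKM, from 7 fragments, and for Rag2 in CD150lo HSC at 0.558 FPKM (others 0 to 0.152). Rag1 was 0.0447 FPKM in 5A3+/del CD150hi HSC of mouse 5, from 10 fragments, and 0.149 FPKM in 5A3+/del CD150neg MPP of mouse 3, from 26 fragments. For Rag1, Rag2 and Il7r in CD150hi HSC most other libraries of these groups were at or near 0, where a few fragments decide the criterion.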

How the results depend on the processing

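Of 1476 log2 differences of single members under up to 21 alternatives each, 1446 kept their direction and their side of the threshold. The mouse as a replicate block changed 1 call, that of Ccr9 between WT CD150lo and CD150hi HSC (0.87, adjusted p = 0.0150), and no other call of a member. With a trend in the variance prior, Flt3 passed between WT CD150neg MPP and CD150lo HSC (adjusted p = 0.0478), so that 1 member was called in place of 0. With only the compared groups in the fit, 3 members in place of 5 were called between 5A3+/del CD150lo and CD150hi HSC (Ikzf1 adjusted p = 0.0741, Notch1 adjusted p = 0.101). Notch1 between WT CD150neg MPP and CD150hi HSC (adjusted p = 0.0551) and Ikzf1 in the same step of 5A3+/del mice (adjusted p = 0.0502) were also lost, in a fit that has fewer libraries for the spread. Without the 2 libraries of lowest median FPKM, an alternative chosen after seeing the data, the genotype differences in CD150hi HSC turned to 0.0332 for Ikzf1 and 0.0546 for Notch1, and the genotype difference of the CD150neg-to-CD150hi step of Ikzf1 to -0.0285. Leaving out each mouse in turn gave 0 to 1 of the 9 permutation tests under 0.05, and turned the sign of uncalled genotype differences: in CD150hi HSC, Ccr9 ran from -0.139 to 0.00767 and Dntt from -0.0173 to 0.433, in CD150lo HSC Flt3 from -0.0850 to 0.118, and in CD150neg MPP Ikzf1 from -0.0272 to 0.0366 and Satb1 from -0.111 to 0.0581. For the difference between genotypes in a step, Flt3 ran from -0.237 to 0.0472 between CD150hi and CD150lo, and Satb1 from -0.0505 to 0.116 there, from -0.0538 to 0.129 between CD150lo and CD150neg, and from -0.0391 to 0.155 between CD150hi and CD150neg. The causes were not tested.

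Counts over all genes moved by over 1.5 times. Between genotypes they ran from 0 to 100 in CD150hi HSC (24 as reported), 0 to 74 in CD150lo HSC (5) and 0 to 9 in CD150neg MPP (7), with 0 in each when only the compared groups were fitted. Between CD150neg MPP and CD150lo HSC they ran from 0 to 69 in WT (29), and in 5A3+/del mice from 0 to 6 (6). With only the compared groups fitted, the counts against CD150hi HSC fell from 544 to 291 (CD150lo) and from 1548 to 1022 (CD150neg) in WT, and from 490 to 315 and from 949 to 449 in 5A3+/del mice. The differences between genotypes in a step reached at most 1, 13 and 2 genes, in place of 0. Depth limits Il7r, Rag1 and Rag2 most, at 0 in 12, 9 and 8 of 29 libraries.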
